A study of Homo sapiens with 18 samples.

Results

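The genes described here are the 6 RFX genes *RFX1*, *RFX2*, *RFX3*, *RFX5*, *RFX6* and *RFX7* together with *FOXJ1*. They were chosen by their gene symbol in the table of comparisons, as 1 transcription factor family and 1 partner in the cilium programme, with their log2 fold changes already known. Their calls below are therefore a description and not independent evidence. All 7 are listed at 3, 6 and 24 h, out of 21944 genes listed at any time and 18672 listed at all 3 times. The other human family members *RFX4* and *RFX8* are not listed at any time.

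Bulk RNA sequencing was performed on human pancreatic progenitors that were detached at day 19 of differentiation and reseeded for 3, 6 or 24 h. At each time, the FN group was plated on fibronectin and the LN411 group on laminin 411, a laminin isoform known for weak cell adhesion, with 3 samples in each of 6 groups and 18 samples in all. No drug or further genetic change was applied, so that matrix and time were the conditions that differed. The growth protocol and the paper give the cells as SA121-derived NGN3-GFP, embryonic stem cells that report *NEUROG3* expression, whereas the source label names HUES4, and in either case a single line stands for the cell type.

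Each gene has a mean normalized count over all 18 samples, which is the authors' mean and has no spread. The log2 fold change between LN411 and FN is given for each time, positive where LN411 was higher, with its standard error (SE). Values per sample were not used here and the depth of the libraries is unknown, so the spread between replicates enters through the SE alone. The paper calls the 3 samples of a group biological replicates. Whether they came from separate differentiations could not be read from the labels, and p-values measure the spread between these samples. Calls were made at an adjusted p-value under 0.05, from the Wald test with Benjamini-Hochberg adjustment over all genes tested at that time. In bulk RNA, a lower value can mean fewer cells of a type or less RNA per cell, and these cannot be told apart. Of the 12 pancreatic progenitor markers, all 12 were listed, with mean normalized counts of 12933 for *PDX1* and 20672 for *SOX9*. *PTF1A* was the lowest of them.

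RFX proteins bind the X-box, a DNA element made of an inverted repeat, through a winged-helix domain. *RFX1*, *RFX2* and *RFX3* are known as regulators of ciliary genes, and *RFX3* also acts in islet cells. *RFX6* is a factor of gut and pancreatic endoderm that is needed for endocrine cell formation and lies downstream of *NEUROG3* in that lineage. *RFX5* forms a complex with *RFXANK* and *RFXAP* that recruits *CIITA* to the promoters of MHC class II genes. *RFX7* has been linked to the p53 response. *FOXJ1* is a forkhead factor and a master regulator of motile cilia, often acting with RFX factors.

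*RFX6* was the most abundant of the 7 genes per length of transcript, with 1887 normalized counts per kb of its longest annotated transcript. *FOXJ1* followed with 972, *RFX5* with 445, *RFX3* with 251, *RFX2* with 238, *RFX7* with 154 and *RFX1* with 99.4 normalized counts per kb. *RFX6* stood at the 92.9th percentile of all listed genes on this scale. With the joined length of all annotated exons in place of the longest transcript, *RFX7* had 148 and *RFX2* 104 per kb, which reverses their order. These levels are means over both matrices and all times, so that neighbours in either order could not be compared against a spread.

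Of the 7 genes, 1 was called up and none was called down at 3 h, against 0.183% of all tested genes called up and 0.200% called down. At 6 h, 2 were called up and 1 down, against 4.90% and 3.33% of tested genes, and at 24 h 3 were called up and 1 down, against 16.7% and 12.8%. The 7 genes had median log2 fold changes of 0.010, 0.048 and 0.0049 in order of time, and all listed genes 0.0076, 0.0062 and 0.012. Calls among the 7 genes went in both directions at 6 and 24 h.

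**Figure D1:**
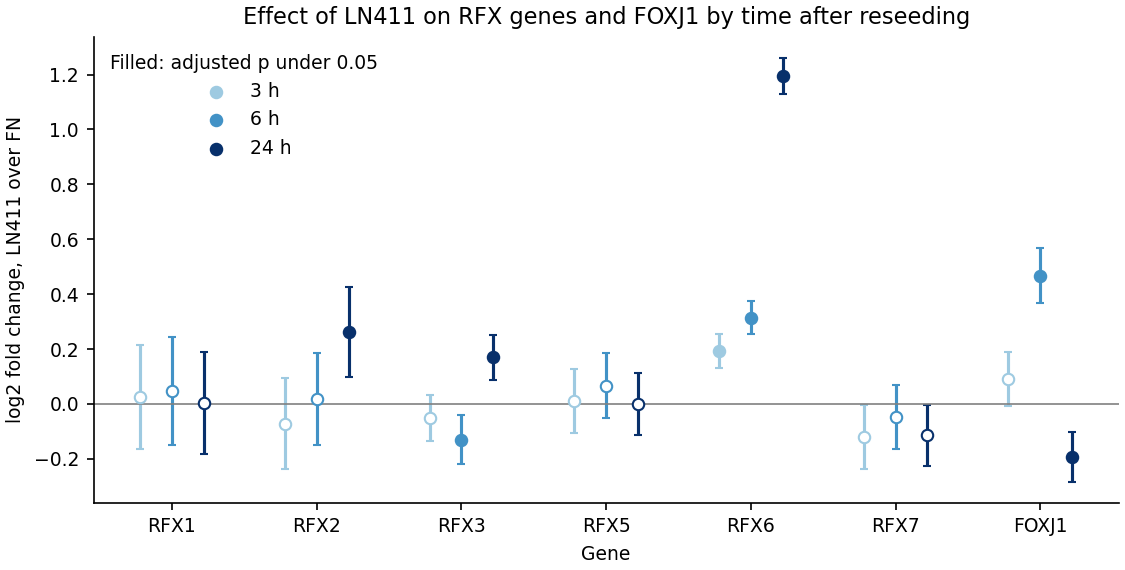
Log2 fold change between LN411 and FN (y axis) for each gene (x axis), in 3 shades for the 3 times after plating, with 95% confidence intervals as bars and filled points for an adjusted p-value under 0.05. *RFX6* is positive at every time and reaches 1.19 at 24 h, whereas *FOXJ1* is at 0.47 at 6 h and −0.19 at 24 h.

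*RFX6* (ENSG00000185002, chromosome 6 of GRCh38, 116877212 to 116932161, forward strand) was higher on LN411 at all 3 times. Its log2 fold change was 0.19 at 3 h (SE 0.032, 95% confidence interval 0.13 to 0.26, adjusted p = 2.60e-06), a 1.14-fold difference. At 6 h the log2 fold change was 0.31 (SE 0.031, adjusted p = 2.24e-21), a 1.24-fold difference. At 24 h it was 1.19 (SE 0.034, 95% confidence interval 1.13 to 1.26, adjusted p = 1.27e-273), a 2.29-fold difference. Ranked by p-value among the genes with positive fold changes, *RFX6* was number 4 at 3 h, number 6 at 6 h and number 1 at 24 h. Its SE was small for its level, at or below the 7.6th percentile of the 500 genes nearest in mean normalized count at each time. The effect at 24 h exceeded that at 6 h by 0.88 on the log2 scale (SE 0.046, adjusted p = 2.22e-79). Between 3 and 6 h the difference was 0.12 (95% confidence interval 0.034 to 0.21, adjusted p = 0.504) and did not pass the test. With a t distribution in place of the normal distribution, the call of *RFX6* at 3 h was lost (adjusted p = 0.101).

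*NEUROG3*, the inducer of endocrine fate upstream of *RFX6*, had a log2 fold change of 0.067 at the first time (adjusted p = 1.0), then 0.45 at 6 h (adjusted p = 0.0611) and lastly 2.54 (adjusted p = 1.99e-98). Its SE at 6 h was 0.16 against 0.031 for *RFX6*. *NEUROG3* was thus called at 24 h, where its effect was larger than that of *RFX6*, and the difference between the 2 genes was not tested. Markers of other cells also moved at these times. *CDX2*, an intestinal transcription factor from a list of liver and gut markers that is named here after its values were seen, was also higher at every time, with log2 fold changes of 0.21, 0.53 and 0.91 at 3, 6 and 24 h. Of the 6 markers on that list, 1 was called at 3 h, 1 at 6 h and 4 at 24 h, all up, and their mean normalized counts ran from 35.9 to 26676. Of 8 endocrine cell markers, 7 were listed, with mean normalized counts from 8.32 to 4312, and 3 of the 6 tested at 24 h were called up. Of the 12 progenitor markers, 4 of 11 tested were called up at 6 h and 5 of 12 at 24 h, and none was called down. Of 5 duct markers, 1 was called up and 1 down at 6 h and 2 up and 2 down at 24 h. Those called down at 24 h were *SPP1* at −1.35 and *KRT19* at −0.39, and those called up *TFF1* at 0.90 and *MUC1* at 0.61. *CFTR* stood at 0.0044 and was not called. At 24 h, 2 of 5 tested acinar markers were called up, 1 of 6 mesenchyme markers up and 1 down, and 1 of 3 pluripotent markers down. Among all tested genes, 0.183%, 4.90% and 16.7% were called up at 3, 6 and 24 h, and 0.200%, 3.33% and 12.8% down. The part of any of these cells in the *RFX6* and *FOXJ1* results was not tested.

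**Figure D2:**
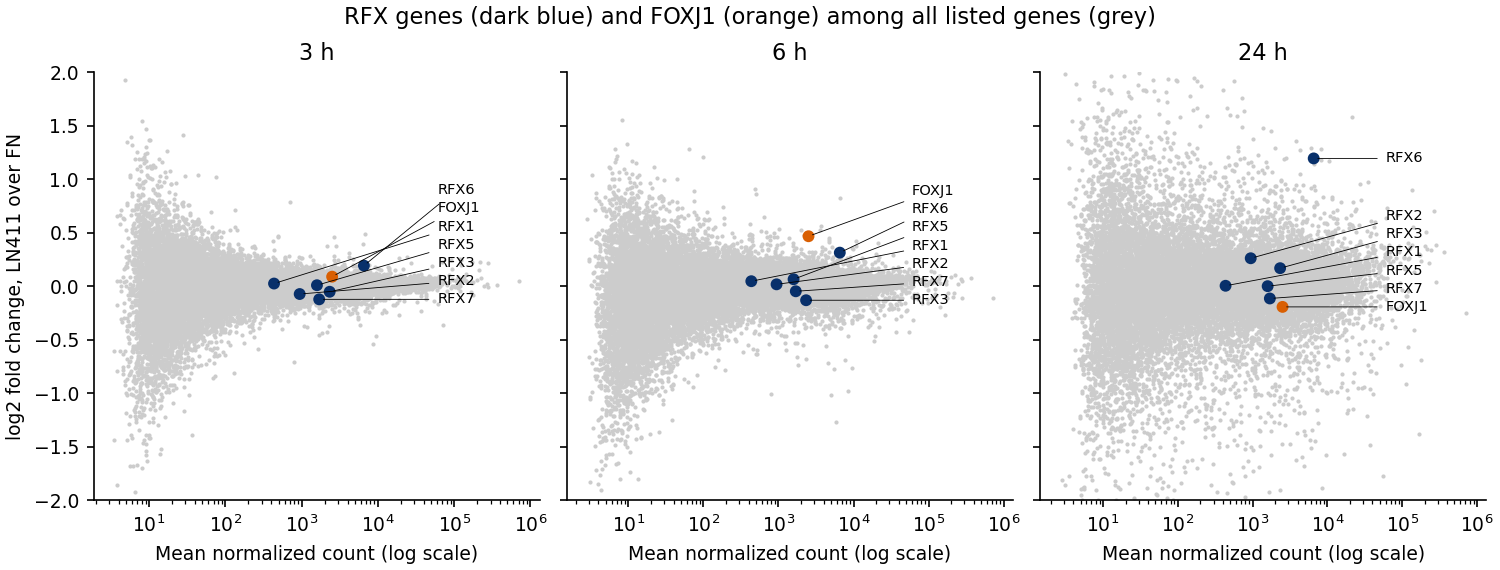
Mean normalized count on a log scale (x axis) against log2 fold change of LN411 over FN (y axis) for all listed genes in grey, with the RFX genes in dark blue and *FOXJ1* in orange, in 1 panel per time. The y axis ends at 2 in either direction, which leaves out 6, 3 and 91 genes at 3, 6 and 24 h. *FOXJ1* lies above the grey points of like level at 6 h, and *RFX6* is at 1.19 at 24 h.

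*FOXJ1* (ENSG00000129654, chromosome 17, 76136333 to 76141245, reverse strand) was higher on LN411 at 6 h and lower at 24 h. At 3 h its log2 fold change was 0.090 (SE 0.050, 95% confidence interval −0.0087 to 0.19, adjusted p = 0.993). At 6 h the log2 fold change was 0.47 (SE 0.051, adjusted p = 2.63e-17), a 1.38-fold difference that was above that of *RFX6* at this time by 0.15 (95% confidence interval 0.037 to 0.27). After removal of trends with GC content and transcript length, *FOXJ1* had 0.38 and *RFX6* 0.31 at 6 h. Whether these genes still differed was then not tested. At 24 h the log2 fold change of *FOXJ1* was −0.19 (SE 0.046, adjusted p = 0.000233), which is 0.875 of the level on FN. The effect therefore changed by 0.38 from 3 to 6 h (SE 0.072, adjusted p = 0.000186) and by −0.66 from 6 to 24 h (SE 0.069, adjusted p = 1.20e-19). With a t distribution the first of these changes was no longer called (adjusted p = 0.277), and the calls at 6 and 24 h were kept.

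Of the 750 genes called at both 6 and 24 h, 43 (5.73%) had opposite directions at the 2 times. *FOXJ1* was 1 of the 28 genes called up at 6 h and down at 24 h, and *RFX3* was 1 of the 15 called down and then up. The call of *RFX3* at 6 h was just under the threshold and was lost under several alternatives, given below. *RFX6* belonged to the 411 genes called up at both times.

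The transcript of *FOXJ1* shares 9 of 2587 exonic bases with the antisense RNA *RNF157-AS1*. Whether reads were counted by strand is not given in the sources used here, and *RNF157-AS1* had log2 fold changes of 0.098, 0.23 and −0.066 at the 3 times, none of them called, with a mean normalized count of 190. *FOXJ1* had a mean normalized count of 2514, whereas the markers of multiciliated cells were low. Of these 7 markers, 5 were listed, with mean normalized counts from 6.27 to 120 and a sum of 285. These counts are not scaled to transcript length. Among other listed genes of motile cilia, *DNALI1* with 3002, *STK36* with 2764 and *DNAAF5* with 2535 lay above *FOXJ1*. The rest lay below it, such as *DNAH5* with 151. *MCIDAS* and *DEUP1*, the coregulator and the deuterosome protein that mark multiciliated cells, were not listed, and none of the 5 listed markers was called at any time (0 at an unadjusted p-value under 0.05).

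The ciliary RFX genes had small fold changes. *RFX3* (ENSG00000080298, chromosome 9, 3218297 to 3526004) was lower on LN411 at 6 h and higher at 24 h. At 3 h its log2 fold change was −0.051 (SE 0.043, adjusted p = 1.0). This became −0.13 at 6 h (SE 0.045, adjusted p = 0.0487). By 24 h the sign had turned, with 0.17 (SE 0.042, adjusted p = 0.000335). The decrease at 6 h was just under the threshold. It was lost with all listed genes adjusted together (adjusted p = 0.0761), with a minimum count of 10 (adjusted p = 0.0694), with a t distribution (adjusted p = 0.17) and after removal of trends with GC content and transcript length (adjusted p = 0.309). The increase at 24 h, 1.12-fold, was kept under each of these. The effect on *RFX3* differed between 6 and 24 h by 0.30 (SE 0.061, adjusted p = 2.84e-05) and between 3 and 24 h by 0.22 (SE 0.060, adjusted p = 0.00256).

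*RFX2* (ENSG00000087903, chromosome 19, 5993164 to 6199572) was called at the last time alone. Its log2 fold change was −0.072 after 3 h (adjusted p = 1.0) and close to 0 after 6 h, at 0.018 (adjusted p = 0.939). At 24 h it was 0.26 (SE 0.083, 95% confidence interval 0.099 to 0.42, adjusted p = 0.00769), a 1.20-fold difference between LN411 and FN. The change of this effect from 6 to 24 h, 0.24 (SE 0.12), was not called (adjusted p = 0.194, Wald test of the difference). The effect at 24 h was above that at 3 h by 0.33 (SE 0.12, adjusted p = 0.0317), and this was lost with a t distribution (adjusted p = 0.102). Its SE was large for its level, between the 84.0th and the 87.0th percentile of the 500 genes nearest in level. *ACSBG2*, which overlaps 109 of 9094 exonic bases of *RFX2* on the other strand, had a mean normalized count of 10.8 against 944 for *RFX2*.

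*RFX1* (ENSG00000132005, chromosome 19, 13961530 to 14007039) is broadly expressed. The log2 fold changes were 0.026, 0.048 and 0.0049 in order of time, and none was called, with adjusted p-values of 1.0, 0.847 and 0.979. The 95% confidence interval at 24 h runs from −0.18 to 0.19, so that differences beyond about 1.14-fold up or 0.882-fold down lie outside it.

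*RFX5* (ENSG00000143390, chromosome 1, 151340640 to 151347326) was not called at any time, with a log2 fold change of 0.010 after 3 h, 0.066 after 6 h (adjusted p = 0.597) and 0.0011 after 24 h (SE 0.058, 95% confidence interval −0.11 to 0.11, adjusted p = 0.993). Antisense transcripts overlap 358 and 122 of its 4555 exonic bases, and the listed one, *RFX5-AS1*, had a mean normalized count of 44.5 against 1590 for *RFX5*. Its partners showed small differences. *RFXANK* was higher at 6 h, with a log2 fold change of 0.21 (SE 0.048, adjusted p = 0.000806), and had 0.081 at 24 h (adjusted p = 0.183). *RFXAP* was higher at 24 h, with 0.27 (SE 0.081, adjusted p = 0.00376). *CIITA*, the coactivator that the complex recruits, stood at −0.60 after 24 h (SE 0.26, adjusted p = 0.0656) at a mean normalized count of 57.6.

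*RFX7* (ENSG00000181827, chromosome 15, 56087280 to 56245082) was not called either. Its log2 fold changes were −0.12 after 3 h (95% confidence interval −0.24 to −0.0055, adjusted p = 0.897), −0.047 after 6 h (adjusted p = 0.726) and −0.11 after 24 h (95% confidence interval −0.22 to −0.0031, adjusted p = 0.120). The intervals at 3 and 24 h do not include 0, but the values did not pass the adjustment over all genes.

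In the order of effects at 24 h, *RFX6* was followed by *RFX2*, which was 0.93 lower (95% confidence interval of the difference 0.76 to 1.11). The further neighbours in that order, *RFX3*, *RFX1*, *RFX5*, *RFX7* and *FOXJ1*, each differed from the gene before by an amount whose interval includes 0. At 6 h, the effect on *RFX6* was 0.25 above that of the next gene, *RFX5* (95% confidence interval 0.12 to 0.38). At 3 h no pair of neighbours was separated in this way. These intervals take the genes of a pair as independent, although both were measured in the same libraries. The order itself was set by the same values.

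Tested across times, the effect of LN411 differed for 1 of the 7 genes between 3 and 6 h, 3 between 6 and 24 h and 4 between 3 and 24 h. Of all genes, 0.257%, 12.8% and 17.0% were called in these comparisons. The comparisons share libraries, since each time enters 2 of them.

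**Figure D3:**
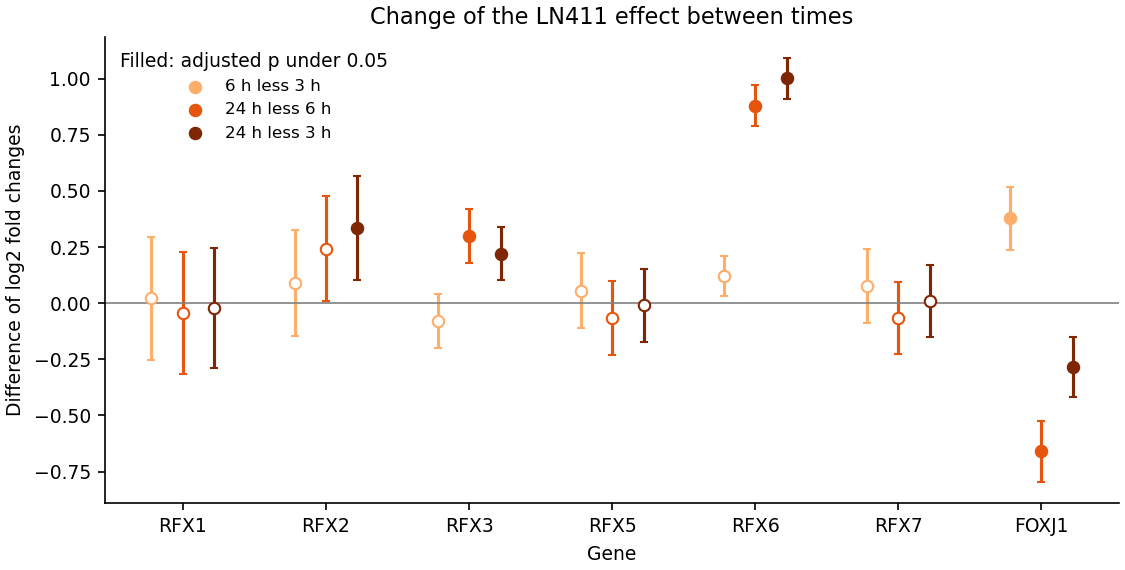
Difference between the log2 fold changes of LN411 over FN at 2 times (y axis) for each gene (x axis), with 95% confidence intervals as bars and filled points for an adjusted p-value under 0.05. *RFX6* lies at 0.88 and *FOXJ1* at −0.66 for 24 h less 6 h, and *RFX1*, *RFX5* and *RFX7* have no filled point.

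Genes linked to RFX factors and *FOXJ1* were examined as 4 lists, with the 7 genes left out. Of 66 genes of the primary cilium and intraflagellar transport, 0 were called at 3 h, and 0 had an unadjusted p-value under 0.05. At 6 h 0 were called up and 2 down among 64 tested, with 4 and 5 at an unadjusted p-value under 0.05. The calls at 6 h were 0.00% and 3.12%, against 4.90% and 3.33% of all tested genes. At 24 h 8 were called up and 10 down among 66. These shares were 12.1% and 15.2%, below the share of all tested genes called up and above that called down, and the median log2 fold change was 0.0082. The genes called down at 6 h were *CEP290*, a protein of the ciliary transition zone, with −0.19 (adjusted p = 0.00102), and *WDR19*, a subunit of the retrograde transport complex, with −0.17 (adjusted p = 0.00646). The call of *CEP290* was lost after removal of GC and length trends (adjusted p = 0.150). At 24 h, *OFD1*, a centriole and basal body protein, had the smallest p-value among those that fell, with −0.44 (SE 0.055, adjusted p = 1.14e-14). It was followed by *KIF3A*, a subunit of the kinesin that drives anterograde transport, and *IFT81* of the transport complex, both with −0.21. Those that rose included *BBS4* of the BBSome with 0.25, *IFT172* with 0.23 and the transition zone gene *TCTN1* with 0.22.

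Of 71 genes of the motile cilium programme, for which *FOXJ1* is the known regulator, 63 were listed at 3 h and 0 were called, with 5 at an unadjusted p-value under 0.05. At 6 h, when *FOXJ1* was higher on LN411, 1 was called up and 1 down among 39 tested. These were 2.56% and 2.56%, against 4.90% and 3.33% of all tested genes. *DNAAF2*, an assembly factor of dynein arms, rose by 0.20 (adjusted p = 0.00199), and *SPAG1*, another such factor, fell by 0.19 on the log2 scale (adjusted p = 0.0196). At 24 h 3 were called up and 8 down among 62 tested, with a median log2 fold change of −0.022. These were 4.84% and 12.9%, against 16.7% and 12.8% of all tested genes, so that the share called down was near that of all genes. Several genes of this list have low counts and a wide SE, such as *DNAI1* with a mean normalized count of 42.1 and an SE of 0.26. The median SE of all listed genes at 24 h was 0.094. The part of low counts in these shares was not tested. *DNAH5*, a heavy chain of the outer dynein arm, fell by 0.82 on the log2 scale (SE 0.14, adjusted p = 1.53e-07), and *SPAG1* fell by 0.68 (adjusted p = 1.07e-31). *DNAL1*, a light chain of the same arm, fell by 0.23, whereas *DNAH11*, another heavy chain, rose by 0.28 (adjusted p = 0.000556). *NME5* and *SPEF2*, of the radial spoke and central apparatus, rose by 0.36 and 0.23.

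Of 19 genes of MHC class II and its RFX complex, 14 were listed. At 3 h 0 were called among 12 tested, and 0 had an unadjusted p-value under 0.05. At 6 h 2 were called up among 10 tested, *RFXANK* and *HLA-DRB5* (0.22, adjusted p = 0.0463), and at 24 h 5 among 14, with none called down at either time (0 and 1 at an unadjusted p-value under 0.05). Of all tested genes 4.90% were called up at 6 h and 16.7% at 24 h, when the share in this list was 35.7%. At 24 h, *HLA-DRB5* had 1.21 (SE 0.096, adjusted p = 3.59e-34) and *HLA-DRB1* 0.58 (SE 0.064, adjusted p = 3.19e-18). These are near-identical paralogs that can share reads, so their separate values are uncertain.

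Of 34 endocrine genes linked to *RFX6* and *RFX3*, 0 were called at 3 h among 25 tested, with 1 at an unadjusted p-value under 0.05, and 3 were called up at 6 h among 12 (4.90% of all tested genes were called up). These 3 were *MNX1* (0.26), *NKX2-2* (0.69) and *CACNB2* (0.29), 2 islet transcription factors and a calcium channel subunit. At 24 h 15 were called up and 1 down among 32 tested, with a median log2 fold change of 0.71. These were 46.9% and 3.12%, against 16.7% and 12.8% of all tested genes. *NEUROG3*, *NKX2-2* (2.31) and *INSM1* (1.92) had the smallest p-values among those that rose, and *SYT13*, a synaptotagmin of endocrine precursors, fell by 0.53 (adjusted p = 2.20e-28). Several of these genes were already known to rise in these samples when the list was made, so the count is not independent evidence.

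**Figure D4:**
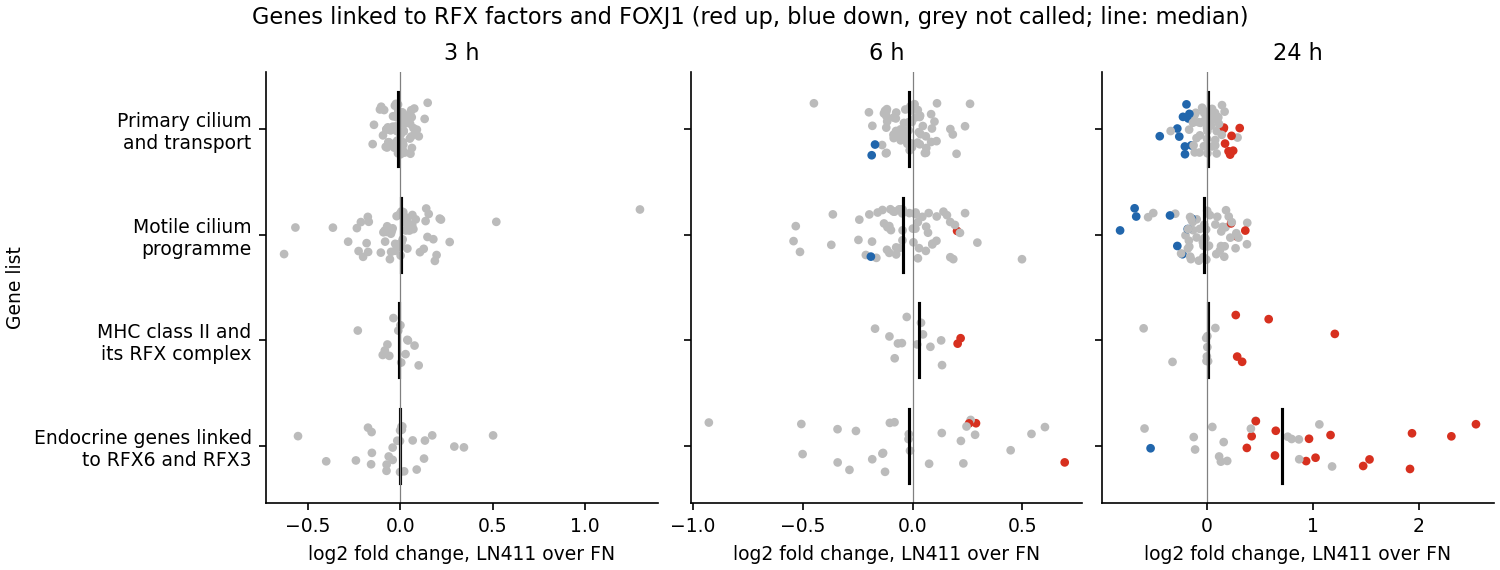
Log2 fold change of LN411 over FN (x axis, with its own range in each panel) for the genes of 4 lists (y axis) at 3, 6 and 24 h, as 1 point per gene in red for genes called up, blue for genes called down and grey for the rest, with a line at the list's median. At 24 h the endocrine genes have a median of 0.71, and both cilium lists hold red and blue points around medians of 0.0082 and −0.022.

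The X-box was searched in the promoters of these genes as the letters GTNNCC and GGNNAC separated by 1 to 3 bases. This pattern reads the same on both strands. Promoters were the RefSeq windows of GRCh38.p14 from 250 bases before to 50 after each start. Of all 35116 windows, 3.51% held it. Counted by gene, it was found for 11 of 57 primary cilium genes (19.3%) and 17 of 55 motile cilium genes (30.9%), against 4.26% of 27305 genes with a window. It was found for none of the 16 MHC class II and 23 endocrine genes with a window. The pattern asks for both sides of the inverted repeat in full, so a site with a changed or missing side was not counted. The absence of a match therefore does not show that these promoters lack a site for RFX proteins. Of the 7 genes themselves, *RFX1*, *RFX3*, *RFX5* and *RFX7* had windows, with neither an X-box nor the forkhead letters TGTTTAC or TATTTAC on either strand, which 5.97% of all windows held. *RFX2*, *RFX6* and *FOXJ1* were not matched to a window.

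Of the 28 cilium genes with an X-box, 26 were listed at 24 h, and 2 were called up and 4 down. These were 7.69% and 15.4%, against 16.7% and 12.8% of all tested genes. The sites of these 6 genes and of *WDR19*, the one called at 6 h, are given here so that the element RFX proteins bind can be read beside the values. They were chosen after their values were seen. The X-box is in capitals, the coordinates are those of the printed bases, and each sequence is written on the strand of its gene.
TCTN1 (chr12:110614121-110614149, forward strand): ctgtcgcgGTTGCCGGGCAACgcgctgtc
DNAH11 (chr7:21543003-21543032, forward strand): gggacaccGTCCCCCGGGAAACgggacgcg
ARL6 (chr3:97764726-97764755, forward strand): aagctcctGTTGCCAAGGGAACggtgcctg
TTC26 (chr7:139133756-139133785, forward strand): caggcgggGTTACCGTGGAGACagaacgtg
DNALI1 (chr1:37556915-37556944, forward strand): agggggcgGTTTCCATGGTGACggcaaaca
EFHC2 (chrX:44343667-44343695, reverse strand): cgcttcccGTCTCCAGGCAACgtgggggc
WDR19 (chr4:39182458-39182487, forward strand): ctcgcgcgGTCTCCTGGGTGACgggaacgc

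*TCTN1* and *DNAH11* are the 2 that were called up at 24 h, with the values above. *TTC26*, a subunit of the anterograde transport complex, stood at −0.26 after 24 h (SE 0.064, adjusted p = 0.000394). *ARL6*, the small GTPase that brings the BBSome to membranes, had −0.28 (SE 0.090, adjusted p = 0.00956), the axonemal dynein gene *DNALI1* −0.14 (SE 0.047, adjusted p = 0.0128) and *EFHC2* −0.35 (SE 0.12, adjusted p = 0.0131). Cilium genes with an X-box thus had log2 fold changes of either sign.

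Over all genes with a promoter window, other than the 7, those with an X-box were called up in 17.6% and down in 13.5% of 676 cases at 24 h. Those without one were called up in 20.1% and down in 14.6% of 12067. At 6 h, 5.97% and 2.24% of 536 genes with an X-box were called up and down, against 5.02% and 3.28% of 9627 without. The median log2 fold change at 24 h was 0.021 with and 0.024 without an X-box.

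Among 13114 genes listed at all times and reaching 100 normalized counts on average, the genes whose 3 log2 fold changes lay nearest to those of *RFX6* were *TMEM63C*, *ENPP2*, *TMEM176A*, *RASL11A* and *BEX5*, at Euclidean distances from 0.090 to 0.13. *TMEM63C* had log2 fold changes of 0.11, 0.30 and 1.16 at 3, 6 and 24 h. Nearest to *FOXJ1* were *EFNA3*, *PPP1R35*, *RASGEF1A*, *ADAT3* and ENSG00000279673, at distances from 0.13 to 0.17, and *EFNA3* had 0.0028, 0.38 and −0.15. Likeness was measured over 3 comparisons only, and none of these genes was among the nearest 5 when Wald statistics were used. All 10 have mean normalized counts below 1000.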

How the data were processed

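Poly(A) RNA of 18 samples was sequenced. The authors aligned reads with STAR 2.7.2d to hg38, obtained gene counts and ran DESeq2 1.34.0 for LN411 against FN at each time. The model formula, the strand setting of the counting and the depth of single libraries are not given in the sources used here. The table used holds the authors' comparison columns and 0 columns of values per sample. The deposited mean normalized count is a signal, scaled by size factors and averaged by the authors across the 18 samples. Its deposited log2 fold changes and standard errors come from the authors' fit. Its Wald statistic, a deposited score, is their ratio. Its deposited p-values were recomputed from the log2 fold change and standard error, and adjusted over the genes with a deposited adjusted p-value. The deposited and recomputed adjusted values differed by at most 9.72e-06. Low genes left out by the authors' independent filtering have none.

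Confidence intervals used the normal distribution. Those for differences between genes take the genes as independent, although all genes come from the same libraries. Effects at different times were compared through their difference, divided by its standard error from both times, which takes the times as independent, and the adjustment ran over every gene with both values. The count test that raw counts would need was not run. The genes and lists were chosen with earlier results of these data known. The genes named are the 7 genes, in each list the 3 called genes per direction and time with the smallest p-values, *RFXANK*, *RFXAP*, *CIITA* and the 5 genes nearest to *RFX6* and *FOXJ1*. Outside this rule, cell type markers and the motile cilium genes *STK36* and *DNAAF5* are named for their levels. *CDX2*, *SPP1*, *KRT19*, *TFF1*, *MUC1*, *CFTR* and the X-box genes *ARL6*, *TTC26*, *DNALI1* and *EFHC2* are named after their values were seen. Genes that overlap one of the 7 are named beside it. Lists used RefSeq synonyms where a symbol was not listed. Gene positions, overlaps, lengths and GC content are those of GENCODE v44, matched by Ensembl identifier for 99.7% of genes listed at 24 h. Python 3.11.15, pandas 2.3.3 and scipy 1.17.1 were used, and the calls were tested on simulated data. The simulation drew normal errors from the same standard errors that the test uses, so it could not check those standard errors. At 24 h it recovered 58.8% of simulated log2 fold changes of 0.5 and 79.6% of those of 1.0. For the difference between 6 and 24 h it recovered 47.4% and 70.9%. Alternatives were a t distribution with 12 degrees of freedom, a threshold of 0.01 for the adjusted p-value, all listed genes without filtering, a mean normalized count of at least 10, removal of GC and length trends (medians over 25 bins, 3 rounds) and subtraction of the median of all genes.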

Additional observations from a re-analysis of the deposited data

Results flagged for a closer look

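The effect of LN411 differed between times, by a test of the difference itself, for 4 of the 7 genes. For *FOXJ1* the difference was 0.38 on the log2 scale for 6 h less 3 h, −0.66 for 24 h less 6 h and −0.28 for 24 h less 3 h. For *RFX6* it was 0.88 for 24 h less 6 h and 1.0 for 24 h less 3 h. For *RFX3* it was 0.30 and 0.22 for these same comparisons. For *RFX2* it was 0.33 for 24 h less 3 h. The adjusted p-values ran from 4.43e-100 for *RFX6* (24 h less 3 h) to 0.0317 for *RFX2*, with the Wald test of the difference and Benjamini-Hochberg adjustment. The sources do not say if a differentiation supplied samples of several times, and its part in these differences was not tested.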

How the results depend on the processing

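No paired analysis was possible because the table holds no values per sample, and for the same reason no fit left out a replicate. *RFX6* and *FOXJ1* at 6 and 24 h and *RFX2* and *RFX3* at 24 h kept their direction and an adjusted p-value under 0.05 under every alternative run. With a t distribution, 0 of the 7 genes were called at 3 h and 0 differed between 3 and 6 h. At 6 h it left 1 primary cilium gene called down, 0 motile cilium genes called up and 0 down, 1 MHC class II gene and 1 endocrine gene called up, and at 24 h 4 motile cilium genes called down. At an adjusted p-value under 0.01, 0 motile cilium genes were called down and 1 MHC class II and 1 endocrine gene up at 6 h. At 24 h 5 primary cilium genes were then called up, and 1 motile cilium gene up and 4 down. With all listed genes adjusted together, with a minimum count of 10, with GC and length trends removed or with the median subtracted, 1 MHC class II gene was called up at 6 h. Removal of GC and length trends left 1 primary cilium gene called down at 6 h and 4 called up at 24 h. A spacer of exactly 2 bases left 7 primary cilium genes with an X-box. Of the nearest 5 genes, 0 were shared for *RFX6* and 0 for *FOXJ1* with Wald statistics. A minimum of 1000 normalized counts also left 0 and 0, which follows from the filter, since all 10 lie below it.

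The sign turned for values near 0, none of them called. Without GC and length trends this was so at 3 h for *CEP290*, *HLA-DRB5*, *NKX2-2*, *RFX1* and *RFX5* (adjusted p = 1 for each), at 6 h for *RFX1* (0.996), *RFX2* (0.983) and *RFX7* (0.885), and at 24 h for *RFX1* (0.999). With the median subtracted it was so at 3 h for *HLA-DRB5* and *RFXAP* (0.99996 for both) and at 24 h for *RFX1* (0.969) and *RFX5* (0.921). Adjusted p-values here are from the Wald test. Why these settings moved these values was not tested. Unknown depth limits what can be said of low genes such as *CIITA*, and genes filtered out at 6 h had mean normalized counts of up to 108.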
